A study of Mus musculus with 33 samples.

Results

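The type I interferon stimulated genes examined here were 10 genes of the mouse, Isg15, Usp18, Ifit1, Ifit3, Mx1, Oasl2, Rsad2, Bst2, Irf7 and Ifi44, among 31054 features counted in 33 bulk RNA-Seq libraries. They were chosen by symbol, and each symbol matched 1 Ensembl identifier. All 10 passed the filter on low counts, which kept a gene with at least 1 CPM (reads of a gene scaled to the library's reads on all genes) in at least 1 library. A gene that passes in this way may still have no reads in most libraries.

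Type I interferons, the alpha and beta interferons, bind the receptor formed by Ifnar1 and Ifnar2. The receptor acts through the kinases Jak1 and Tyk2 on transcription factors, Stat2 and Irf9 among them, that bind interferon stimulated response elements in the promoters of the genes described here. Their products restrict viruses at several steps, from entry to release, and some of them, such as Usp18, limit the response. Cells often hold a low level of these genes without infection, and plasmacytoid dendritic cells are known as strong producers of type I interferon.

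The libraries came from DEREG mice on a C57BL/6 background, which carry a transgene for GFP and the diphtheria toxin receptor under the Foxp3 promoter, so that Foxp3+ Tregs can be sorted by GFP. Tolerant mice had received 4000 islet equivalents of porcine neonatal islet cell clusters (NICC) under the renal capsule, with a short course of the fusion protein CTLA4-Fc and the CD154 antibody MR-1 (500 µg per dose each), and their cells were taken at day 100. Naive mice had neither graft nor treatment, so that graft, treatment and time after transplantation cannot be told apart between the 2 kinds of mice. By a figure legend of the study, tolerant mice and naive mice used for spleens were male, whereas naive mice used for lymph nodes were female. For the study as a whole, its methods report both sexes and no significant difference. Sex too cannot be told apart from tolerance in every comparison of DLN/CD127-/lo or DLN/CD127hi with DLN/naive Tregs. From each mouse kind, CD45+CD4- cells, CD4+ Foxp3- T cells and Tregs of the spleen (SP) and Tregs of the graft-draining lymph node (DLN) were sorted, with the Tregs of tolerant mice divided by CD127, the alpha chain of the IL-7 receptor, into CD127-/lo and CD127hi Tregs. Tregs from the graft made the last of the 11 groups. Each group had 3 libraries of sorted cells. Each library is described as a pool of mice. The tolerant mice came from independent transplant experiments, and the tolerant groups may share mice. How the naive mice were divided among libraries is unclear. The p-values thus measure the spread between these libraries, which may be in part technical, and take no account of shared mice.

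Between 844039 and 1935323 reads per library were assigned to genes in the 9 DLN libraries and between 2550698 and 4615283 in the 24 libraries of spleen and graft. The DLN libraries were sequenced on a MiSeq and the others on a NextSeq 500, and the effects of tissue and of sequencer cannot be told apart. In the DLN, 3 reads, the limit that a count of 0 allows, stood for 1.55 to 3.55 CPM, against 0.650 to 1.18 CPM in the other libraries, for counting error only. The summed level of 5 Treg markers was 5254 to 18995 CPM in the 21 Treg libraries and 59.8 to 1607 CPM in the 12 others. A B cell list of 8 genes was at 1813 to 3544 CPM in the DLN/CD127hi Tregs, against 367 to 2016 CPM in the other Treg groups. In libraries of sorted cells, fewer cells of a type and less RNA per cell cannot be told apart.

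The genes lie on 9 chromosomes of GRCm38 (mm10). Isg15 (chr4:156199424-156200818) encodes a ubiquitin-like protein that is attached to other proteins, and Usp18 (chr6:121245906-121270917) the protease that removes it and that also dampens receptor signalling. Ifit1 (chr19:34640871-34650009) and Ifit3 (chr19:34583531-34588731) encode proteins that bind viral RNA and one another. The antiviral effectors were Mx1 (chr16:97447035-97462907), a dynamin-like GTPase, Oasl2 (chr5:114896936-114912234), a member of the oligoadenylate synthetase family, Rsad2 (chr12:26442746-26456452), which encodes viperin, and Bst2 (chr8:71534255-71537456), which encodes tetherin. Irf7 (chr7:141262706-141266481) encodes the transcription factor that drives interferon alpha genes, and Ifi44 (chr3:151730922-151749960) a cytoplasmic protein of the response. In C57BL/6 mice Mx1 is known to carry a deletion and to give no functional protein, while its RNA can still be measured.

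The promoters are shown because they hold what these genes are known to share, a site for interferon activated factors. RefSeq promoter sequences (GRCm38.p6) were at hand for 8 of the 10 genes, all but Mx1 and Usp18. The 250 bases upstream of the start were searched for GAAANNGAAA and its reverse complement TTTCNNTTTC, a core of the interferon stimulated response element in which N is any base. A match was found in 5 of the 8, Isg15, Ifit1, Ifit3, Rsad2 and Bst2, and in 978 of 32851 promoters in all (2.98%). No match stood in the same window of Oasl2, Irf7 and Ifi44. The stretch around the matches is given from 5′ to 3′ on the strand of the gene, with the matches in capitals.
Isg15 (chr4:156200845-156200926, minus strand): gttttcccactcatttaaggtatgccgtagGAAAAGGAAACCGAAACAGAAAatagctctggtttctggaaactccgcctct
Ifit1 (chr19:34640755-34640843, plus strand): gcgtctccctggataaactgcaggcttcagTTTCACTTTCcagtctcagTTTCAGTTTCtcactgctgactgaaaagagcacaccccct
Ifit3 (chr19:34583343-34583446, plus strand): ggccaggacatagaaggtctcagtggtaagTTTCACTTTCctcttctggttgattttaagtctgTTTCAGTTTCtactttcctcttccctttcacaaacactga
Rsad2 (chr12:26456533-26456602, minus strand): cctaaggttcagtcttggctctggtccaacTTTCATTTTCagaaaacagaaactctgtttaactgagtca
Bst2 (chr8:71537557-71537632, minus strand): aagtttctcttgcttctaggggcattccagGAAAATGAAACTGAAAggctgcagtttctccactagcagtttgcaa
The capitals of Isg15 hold 3 overlapping matches, the first starting 78 bases before the start site, and those of Bst2 hold 2. Ifit1 and Ifit3 carry 2 separate matches each in the reverse orientation, and Rsad2 carries 1 that begins 120 bases before the start.

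The 10 genes were uneven between libraries, with mean CPM above those of 64.5% (Isg15) to 87.1% (Ifit1) of the genes tested. Per kilobase of exon, the mean over the 33 libraries was highest for Bst2 (45.3 CPM per kb), Ifit1 (24.7) and Usp18 (17.03) and lowest for Oasl2 (1.44). By the median over the 33 libraries Bst2 was highest too (36.98 CPM per kb), Ifi44 was lowest (0.1403), and Isg15 was at 1.05, against a mean of 11.2. Isg15 had no read in 14 of 33 libraries, Ifi44 in 13 and Rsad2 in 9, whereas Usp18 and Irf7 had reads in all but 1. Within groups, the median ratio of SD to mean was between 0.559 for Irf7 and 1.54 for Isg15, with a median of 0.884 over the 10 genes, against 0.668 over the 5743 genes tested whose mean CPM lay in the same range and 1.19 over all genes tested. The SD of 3 libraries was above the mean in 9 of the 11 groups for Isg15 and in 8 for Ifi44. In the order of the 11 group means, only 3 of 100 neighbouring pairs were further apart than the larger SD of the pair, 1 each for Bst2, Oasl2 and Rsad2. Scaling by TMM effective library sizes in place of library totals moved none of the 110 group means by more than its SD.

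**Figure D1:**
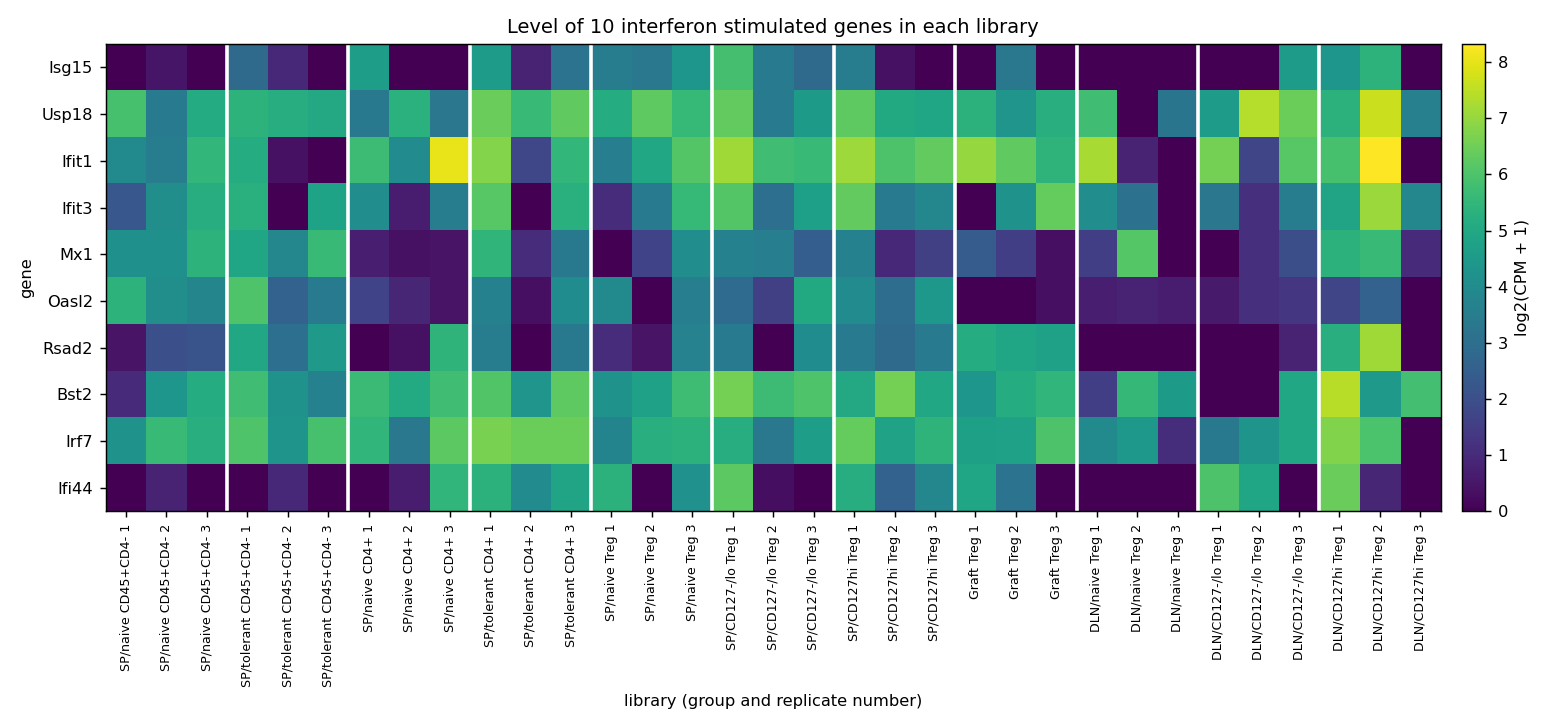
Level of the 10 genes (rows) in the 33 libraries (columns, in groups of 3 divided by white lines), as log2(CPM + 1), with yellow for the highest values. Replicate 3 of the DLN/CD127hi Tregs and the naive DLN libraries are dark for most genes, while replicates 1 and 2 of the DLN/CD127hi Tregs are bright.

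Libraries of one group were often far apart, and several genes moved together there. The summed level of the 10 genes was 591, 973 and 81.98 CPM in replicates 1, 2 and 3 of the DLN/CD127hi Tregs, which held both the highest library of the series and the second lowest. In the SP/tolerant CD4+ T cells the sums were 557, 173 and 393 CPM, and in the SP/CD127-/lo Tregs 575, 154 and 242 CPM. The graft Tregs were closer together, with 282, 224 and 291 CPM. All 10 genes had more than 3 reads in 5 libraries, all of the spleen, and the fewest were 2 genes in replicate 3 of the DLN/naive Tregs. The deviation of each gene from its group mean (log2 CPM) was compared with that of the other 9 genes over the 33 libraries. The correlation was 0.769 for Rsad2, 0.737 for Irf7 and 0.712 for Ifit1, and it was lowest for Usp18 (0.222), Bst2 (0.194) and Ifi44 (0.170), with a median of 0.5997 beside 0.0383 for all other genes with a group mean of at least 10 CPM. The genes of one library share its depth and its amplification, and the libraries' deviation in the log2 of the gene total had a correlation of 0.185 with the deviation of the 10 genes together. Among 58 other interferon stimulated genes, Ifitm3 (0.727) and Ifi213 (0.698) followed the 10 genes most closely by this measure, which was chosen after the values had been seen, and the median of the 58 was 0.267 beside 0.0369 for all 11309 genes. Of these 58, 2 were among the first 20 genes. The 4 closest genes of all were outside the list, Swi5 (0.751), Spag7 (0.745), Scand1 (0.744) and Mdh2 (0.735). Ifi206 (0.735) and Ddx60 (0.681) were also among the first 20 and outside the list, so that the count of 2 covers the list alone. None of these correlations was tested.

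**Figure D2:**
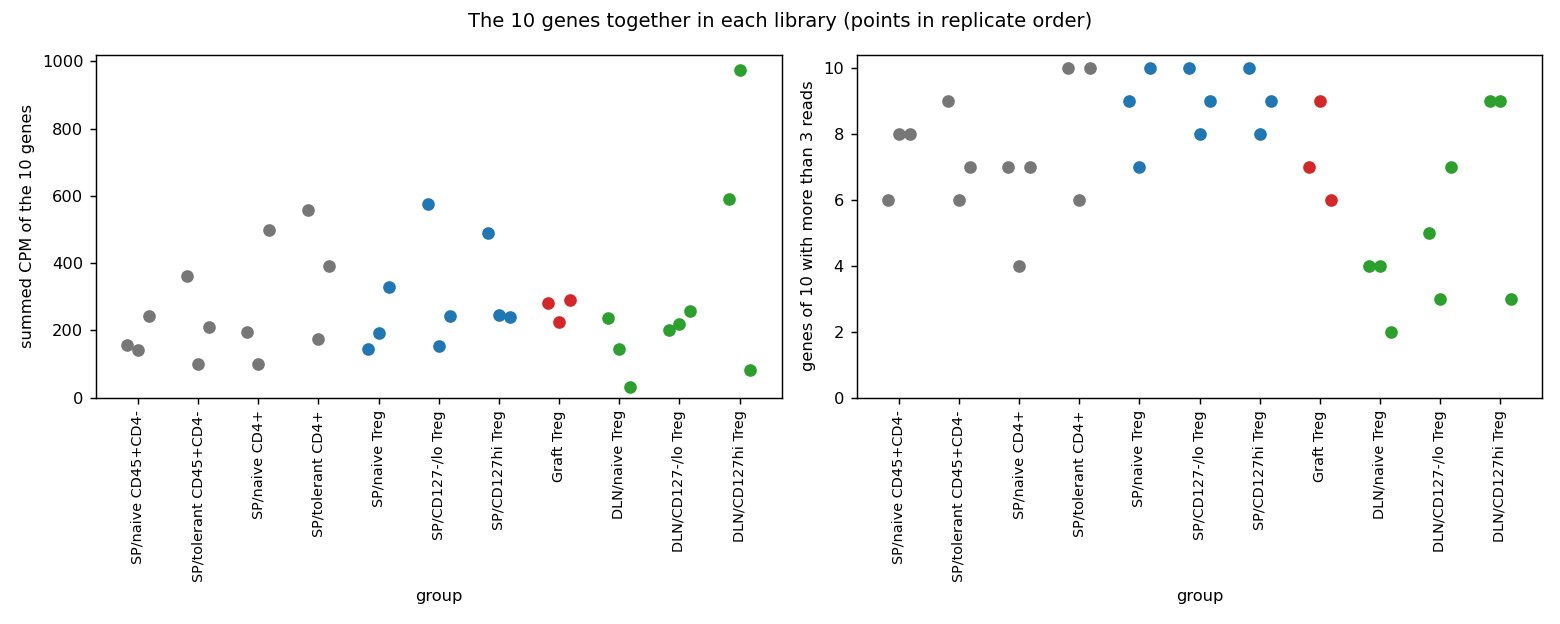
Summed CPM of the 10 genes (left) and number of the 10 with more than 3 reads (right) in each library, by group, with 3 points per group in replicate order. In the DLN/CD127hi Tregs the points lie at 591, 973 and 81.98 CPM, a wider spread than in any other group.

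Over 19 comparisons between groups, 1 of 190 tests of the 10 genes was called at an adjusted p under 0.05, with edgeR's quasi-likelihood test and adjustment over all 25347 genes tested. That was 0.526% of the tests of these genes, beside 0.385% of all tests. The call was Rsad2, which was higher in DLN/CD127hi Tregs than in DLN/naive Tregs. At an unadjusted p under 0.05, 23 of the 190 tests passed (12.1%, beside 8.05% of all tests). In the 18 comparisons without a call, 20 tests had an unadjusted p under 0.05, the likelihood ratio test of edgeR called 0 and DESeq2 called 7. The 10 genes thus stood close to the background of the series, and the values of single libraries are given below for the genes with the largest differences.

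The 1 call, Rsad2, lay between the Tregs of the DLN. Its levels were 36.3, 140.1 and 0 CPM in the 3 libraries of DLN/CD127hi Tregs. It was at 0, 0 and 0.756 CPM in DLN/CD127-/lo Tregs and at 0 in all 3 libraries of DLN/naive Tregs. Replicates 1 and 2 of the DLN/CD127hi Tregs were high and replicate 3 had no read, so that the groups overlapped at 0. Replicate 3 also had reads on fewer genes, 11126, against 17444 and 16583 in replicates 1 and 2, at gene totals of 963660, 854775 and 1163085 reads, and the DLN/naive libraries had reads on 12425 to 13370 genes. The part of this in the difference was not tested. Against 3 reads per library in the DLN/naive Tregs, the mean of 58.8 ± 72.7 CPM (SD, n = 3) was at least 30.2-fold higher (log2 fold change 10.27 ± 2.64 (SE), adjusted p = 0.0225). Without replicate 2 of the DLN/CD127hi Tregs it was at least 9.32-fold higher. The fitted change depends on how a count of 0 is handled and is no measure of the size. In this comparison 1 of the 10 genes was called, and 0.951% of all genes were called. Over 14 alternatives the adjusted p was between 0.00129 and 0.407, and 7 kept the call. It was lost with a stricter filter (0.0806), with counts adjusted by ComBat-Seq (0.208), with a model of the compared libraries only (0.407), without replicate 2 of the DLN/CD127hi Tregs (0.0816), and without any 1 of the DLN/naive libraries (0.0798 to 0.0845).

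Against the DLN/CD127-/lo Tregs, in which 1 read of Rsad2 was counted in all, the ratio of the pooled reads per total was 267 (95% interval 47.4 to 10598), for counting error only. The test over libraries gave an adjusted p of 0.0991, with a range from 0.00956 to 0.794 over the alternatives. None of the 10 genes was called there, beside 0.418% of all genes, and 4 had an unadjusted p under 0.05. Ifit3 was at 28.1, 135 and 13.5 CPM in the former and at 8.78, 1.18 and 10.6 CPM in the latter. It was the 1 gene of the 10 whose libraries did not overlap here, as was the case for 5.15% of all genes (log2 fold change 2.87 ± 1.43 (SE), adjusted p = 0.553). Bst2 was at 173, 21.5 and 56.04 CPM in the former and at 0, 0 and 30.2 CPM in the latter (log2 fold change 2.75 ± 1.14 (SE), adjusted p = 0.371). Without replicate 3 of the DLN/CD127-/lo Tregs, in which alone of that group Bst2 was found, Bst2 was called (adjusted p = 0.001503).

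Ifi44 and Isg15 were also without a read in the 3 libraries of DLN/naive Tregs. Ifi44 was at 63.04, 28.4 and 0 CPM in DLN/CD127-/lo Tregs, at least 15.7-fold higher than in DLN/naive Tregs (adjusted p = 0.0733) and at least 7.31-fold higher without replicate 1 of the DLN/CD127-/lo Tregs. The kidney epithelial markers summed to 11.4, 73.5 and 2.27 CPM in the DLN/CD127-/lo Tregs, against 1.26, 3.04 and 1.66 CPM in DLN/naive Tregs, the B cell markers to 1605, 2016 and 984 CPM against 367, 766 and 851 CPM, and 19525, 18413 and 10784 genes had reads against 12425, 13370 and 12893. Replicates 1 and 2, which held Ifi44, were the libraries with the higher kidney sums and the most genes, and the part of this in the difference was not tested. Ifi44 was at 85.4, 0.8598 and 0 CPM in DLN/CD127hi Tregs, at least 14.8-fold higher (adjusted p = 0.0562). In the DLN/CD127hi Tregs the level came from replicate 1 alone, since the other libraries held 1 and 0 reads and were under the limit of 3 reads, so that no lower bound remains without it. Neither difference was called, and over the alternatives the adjusted p lay between 0.0167 and 0.757 for the first and between 0.00992 and 0.745 for the second. Isg15 was at 19.9, 40.4 and 0 CPM in DLN/CD127hi Tregs, at least 10.3-fold higher (adjusted p = 0.131) and at least 5.11-fold higher without replicate 2, and at 0, 0 and 23.4 CPM in DLN/CD127-/lo Tregs. Between DLN/CD127-/lo and DLN/naive Tregs none of the 10 genes was called, beside 0.355% of all genes, and 3 had an unadjusted p under 0.05.

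All 10 genes had a log2 fold change above 0 between DLN/CD127hi and DLN/naive Tregs, with a median of 1.86 beside 0.40 for all genes tested, and the median was 0.64 beside 0.58 between DLN/CD127-/lo and DLN/naive Tregs. Both comparisons share the DLN/naive libraries. Irf7 was at 108, 61.04 and 0 CPM in DLN/CD127hi and 14.5, 20.5 and 1.11 CPM in DLN/naive Tregs (log2 fold change 2.00 ± 1.09 (SE), adjusted p = 0.498). Usp18 was at 39.8, 201 and 11.4 and 53.6, 0 and 8.32 CPM (log2 fold change 1.72 ± 1.02 (SE), adjusted p = 0.546), with overlapping libraries. Ifit1 had the highest library of any of the 10 genes, at 319.8 CPM in replicate 2 of the DLN/CD127hi Tregs, while replicate 3 had no read and replicate 1 of the DLN/naive Tregs was at 148.9 CPM.

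Markers of other cells moved with these libraries. The summed level of 8 plasmacytoid dendritic cell markers was 470.3, 376 and 97.5 CPM in replicates 1, 2 and 3 of the DLN/CD127hi Tregs, against 101, 69.9 and 59.4 CPM in DLN/naive and 73.4, 113 and 95.2 CPM in DLN/CD127-/lo Tregs. Most of it was Ly6d, which B lineage cells express too, at 296, 342 and 69.5 CPM, and Tcf4 at 142, 6.02 and 2.08 CPM. The more specific Siglech was at 2.34, 1.72 and 2.08 CPM, at or below 3 reads in each library, and Klk1 was at 0. The B cell markers summed to 3544, 2889 and 1813 CPM, against 367, 766 and 851 CPM in DLN/naive Tregs. A list of 11 macrophage and monocyte markers summed to 811, 1242 and 987 CPM, against 307, 30.4 and 385 CPM. Lyz2 alone was at 643, 825 and 717 CPM, against 286, 0 and 361 CPM. Csf1r was at 1.17, 62.8 and 1.04 CPM and Mrc1 at 1.17, 84.3 and 1.04 CPM in the DLN/CD127hi Tregs, so that both were high in replicate 2 alone. The 7 kidney epithelial markers summed to 65.5, 49.9 and 2.08 CPM, against 1.26, 3.04 and 1.66 CPM in DLN/naive Tregs, and so were high in replicates 1 and 2 and near the level of naive mice in replicate 3, as Rsad2 was. In replicate 3 the B cell and macrophage sums were also above those of every DLN/naive library, while Rsad2, Ifit1, Irf7, Isg15, Ifi44 and Oasl2 had no read. Most of these sums in replicate 3 came from Cd74 (819 CPM) and Ighm (814 CPM), and from Lyz2 (717 CPM) and Ccr2 (160 CPM). There Cd79b was at 119 CPM and Ebf1 at 40.5 CPM, while Cd79a and Cd68 had no read. The part of these cells in the difference of Rsad2 was not tested.

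**Figure D3:**
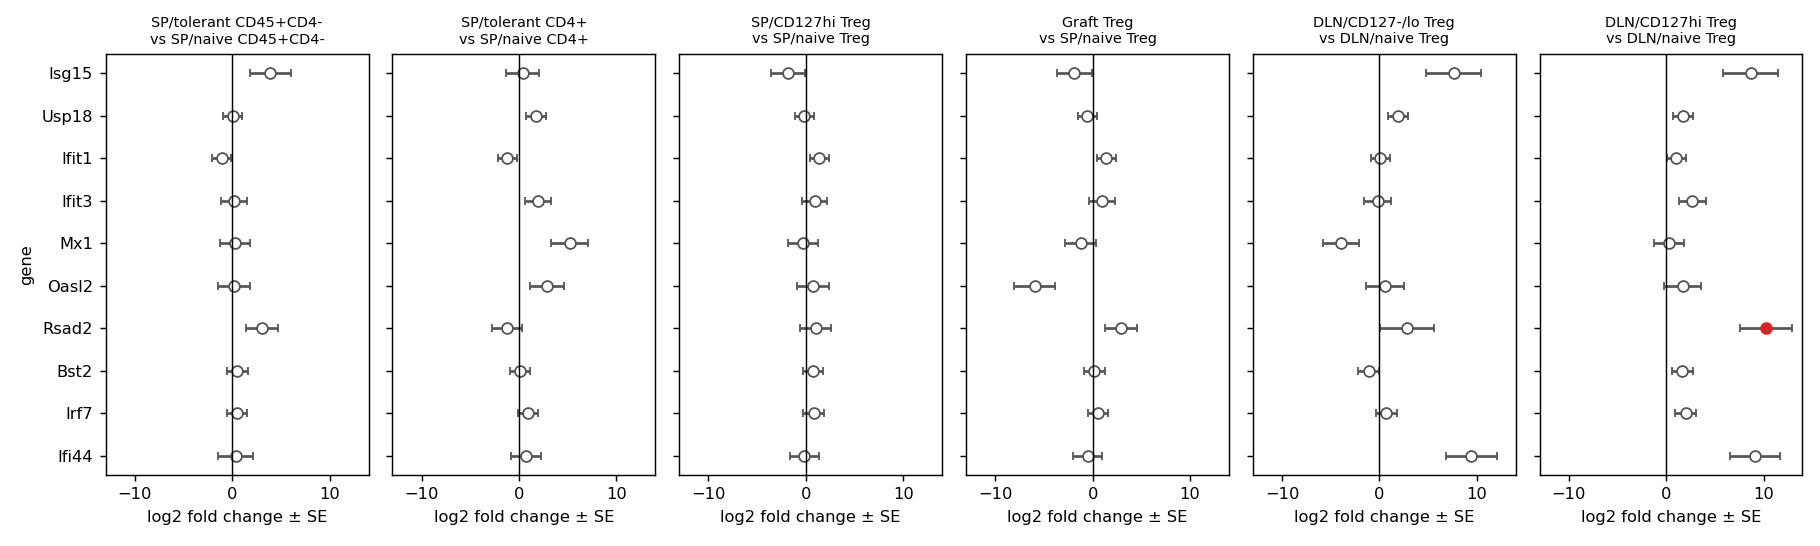
Log2 fold change (x axis) with its standard error for each of the 10 genes (y axis) in 6 comparisons of tolerant with naive samples, from the quasi-likelihood fit. The filled red point is the 1 call, Rsad2 in DLN/CD127hi against DLN/naive Tregs, and open points were not called. Where a group is at 0 in every library, the fitted value is no measure of the size.

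In the spleen, no difference of CD127hi or CD127-/lo Tregs from naive Tregs, or from each other, passed the test. None of the 10 genes was called or had an unadjusted p under 0.05 in these 3 comparisons, in which 0.071% (CD127-/lo against naive), 0.0197% (CD127hi against naive) and 0.0907% (CD127hi against CD127-/lo) of all genes were called, and neither the likelihood ratio test nor DESeq2 called any of the 10. Rsad2 was at 9.97, 6.34 and 9.95 CPM in the 3 libraries of SP/CD127hi Tregs, 9.81, 0 and 15.6 CPM in SP/CD127-/lo Tregs and 1.06, 0.367 and 11.98 CPM in SP/naive Tregs. Isg15 was found in all 3 SP/naive Treg libraries, at 10.3, 9.16 and 19.8 CPM, and in all 3 of the SP/CD127-/lo Tregs, at 56.9, 9.68 and 6.28 CPM. In SP/CD127hi Tregs it was at most at 10.6 CPM, and 2 of the 3 libraries had 3 reads or fewer. Ifit1 was at 136, 63.7 and 79.6 CPM in SP/CD127hi and 10.9, 30.4 and 67.97 CPM in SP/naive Tregs (adjusted p = 0.9498).

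The difference between CD127hi and CD127-/lo Tregs was compared between DLN and spleen. For Rsad2 it was larger in the DLN by 7.56 ± 2.62 (SE) on the log2 scale, with an adjusted p of 0.327. None of the 10 genes was called in this test, beside 0.118% of all genes. For the difference between CD127-/lo and naive Tregs, Ifi44 had the lowest adjusted p of the 10 genes, 0.278, with none called beside 0.138% of all genes. For tolerant against naive mice in CD45+CD4- cells minus CD4+ T cells the lowest adjusted p was 0.918, beside 0.0473% of all genes called. Over the 3 tests, 7 values of the 10 genes had an unadjusted p under 0.05, and the likelihood ratio test and DESeq2 called none.

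Graft Tregs held little Oasl2 and a steady level of Rsad2. Oasl2 was at 0, 0 and 0.2805 CPM in the 3 graft libraries, 1 read in all, against 14.3, 0 and 10.7 CPM in SP/naive, 6.46, 1.99 and 32.2 CPM in SP/CD127-/lo and 15.2, 6.94 and 20.7 CPM in SP/CD127hi Tregs. Every library of both tolerant splenic Treg groups was above every graft library. The pooled reads per total were higher in the spleen by a ratio of 172 (95% interval 30.4 to 6819.9) for SP/CD127hi Tregs, for counting error only. The quasi-likelihood test called none of the 3 differences, with adjusted p of 0.339, 0.327 and 0.2496 in the same order, and DESeq2 called all 3 (adjusted p = 0.0220, 0.00616 and 0.00512). The DLN Tregs were low as well, at 0.631, 0.7600 and 0.555 CPM in DLN/naive, 0.517, 1.18 and 1.51 CPM in DLN/CD127-/lo and 2.34, 5.16 and 0 CPM in DLN/CD127hi Tregs, where 3 reads stood for a higher level. Rsad2 was at 34.5, 29.3 and 26.1 CPM in the graft, above all libraries of the splenic Tregs, with no call (adjusted p = 0.746 against SP/naive Tregs).

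None of the 10 genes was called between graft Tregs and SP/naive Tregs (0.13% of all genes called), SP/CD127-/lo Tregs (0.0829%) or SP/CD127hi Tregs (0.103%). In these comparisons 2, 4 and 2 of the 10 genes did not overlap between groups, where 8.39%, 7.22% and 8.98% of all genes did not. Besides Oasl2 and Rsad2 these were Isg15 against SP/naive Tregs, and Mx1 and Bst2 against SP/CD127-/lo Tregs, each lower in the graft. The gaps were small for Isg15 and Mx1. The highest graft and the lowest splenic library were at 9.14 and 9.16 CPM for Isg15 and at 4.38 and 4.64 CPM for Mx1. For Bst2 they were at 43.2 and 51.6 CPM. The 3 comparisons share the graft libraries. A list of 7 kidney epithelial markers summed to 119.9, 847 and 42.3 CPM in the graft libraries. The macrophage and monocyte markers summed to 336, 322 and 676 CPM there against 150.4, 94.2 and 54.2 CPM in SP/naive Tregs. The 6 neutrophil markers summed to 48.2, 20.7 and 21.9 CPM against 0, 4.399 and 0 CPM. Of these lists, C1qa, Adgre1, Csf1r, Fcgr1 and Mrc1, and S100a8, S100a9, Csf3r and Retnlg, had no read in the graft libraries. The part of these cells in the graft values was not tested.

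In the spleen of tolerant mice, Mx1 of the CD4+ T cells lay above that of naive mice in every library. It was at 43.02, 1.06 and 9.25 CPM in the 3 libraries of SP/tolerant CD4+ T cells and at 0.618, 0.285 and 0.341 CPM in those of SP/naive CD4+ T cells, where no library had more than 2 reads. Replicate 2 of the tolerant group was close to the naive level (log2 fold change 5.21 ± 1.89 (SE), adjusted p = 0.538). Irf7 was at 98.6, 86.6 and 85.9 CPM in tolerant and 43.3, 9.13 and 74.4 CPM in naive cells (log2 fold change 0.93 ± 1.05 (SE), adjusted p = 0.835), and the tolerant CD4+ T cells were the group with the highest mean, 90.4 ± 7.16 CPM (SD, n = 3). Usp18 was at 85.2, 48.2 and 77.7 CPM in tolerant and 9.27, 38.8 and 8.88 CPM in naive cells (log2 fold change 1.73 ± 1.02 (SE), adjusted p = 0.692). These 3 genes did not overlap between the groups, as was the case for 9.99% of all genes. None of the 10 was called, beside 0.107% of all genes, and Mx1 alone had an unadjusted p under 0.05. The median log2 fold change of the 10 genes was 0.81 beside -0.23 for all genes. In replicate 2 of the tolerant group Ifit1, Ifit3, Isg15 and Rsad2 were at 2.38, 0, 0.794 and 0 CPM, while Irf7 was at 86.6 CPM there. The macrophage and monocyte markers summed to 112, 192 and 119 CPM in tolerant and 71.1, 72.2 and 108 CPM in naive cells. A list of natural killer (NK) and CD8 T cell markers summed to 179, 204 and 277 CPM and 98.0, 152 and 137 CPM. The B cell and plasmacytoid dendritic cell sums overlapped. The part of these cells in the differences was not tested.

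In CD45+CD4- cells, none of the 10 genes passed the test between tolerant and naive mice. None was called or had an unadjusted p under 0.05, and 0.0355% of all genes were called. Rsad2 was at 31.1, 7.22 and 21.3 CPM in tolerant and 0.346, 3.14 and 3.49 CPM in naive mice, higher in every tolerant library (log2 fold change 3.04 ± 1.67 (SE), adjusted p = 1). It was the 1 gene of the 10 without overlap, beside 6.78% of all genes. Markers of other cells also did not overlap between these libraries. The B cell markers summed to 15169.9, 16370.3 and 14306 CPM in tolerant and 10042, 8642 and 10832 CPM in naive mice. In the same order, the plasmacytoid dendritic cell markers summed to 2024, 2234 and 1652 CPM and 1265, 908 and 1542 CPM. Their list holds Ly6d, which B lineage cells express too, and its Klk1 had no read in either group. The T cell markers summed to 1326, 1278 and 991 CPM and 2030.2, 1995 and 2587 CPM. The part of these cells in the difference of Rsad2 was not tested. Without replicate 1 of the tolerant group Ifit1 was called as lower in tolerant mice, where the remaining libraries had 0.301 and 0 CPM, against 14.5, 10.6 and 44.5 CPM in naive mice.

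Between CD45+CD4- cells and CD4+ T cells of naive spleens, Mx1 and Oasl2 separated in every library but did not pass the quasi-likelihood test. Mx1 was at 17.3, 17.3 and 40.3 CPM in CD45+CD4- cells and at 0.618, 0.285 and 0.341 CPM in CD4+ T cells (log2 fold change 5.56 ± 1.91 (SE), adjusted p = 0.1801), and Oasl2 at 41.2, 16.5 and 12.7 CPM and 2.16, 0.856 and 0.341 CPM (log2 fold change 4.06 ± 1.87 (SE), adjusted p = 0.423). Both were higher in every CD45+CD4- library, which held for 2 of the 10 genes and, in either direction, for 13.1% of all genes. DESeq2 called both (adjusted p = 0.0139 for Mx1 and 0.0326 for Oasl2). Ifi44 had the lowest adjusted p of the 10 genes there, at 0, 0.784 and 0 CPM in CD45+CD4- cells and 0, 0.571 and 44.04 CPM in CD4+ T cells (log2 fold change -6.05 ± 1.99 (SE), adjusted p = 0.153), and its level in the T cells came from replicate 3. Ifit1 was lower in the mean, at 14.5, 10.6 and 44.5 CPM in CD45+CD4- cells and 51.01, 15.1 and 264 CPM in CD4+ T cells, with overlapping libraries (log2 fold change -2.48 ± 1.02 (SE), adjusted p = 0.317). Of the 10 genes 5 had an unadjusted p under 0.05, with none called beside 1.04% of all genes.

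In tolerant mice, Ifi44 was at 0, 0.903 and 0 CPM in CD45+CD4- cells and 39.5, 15.1 and 28.3 CPM in CD4+ T cells, without overlap. The pooled reads per total were higher in the T cells by a ratio of 87.95 (95% interval 29.8 to 429), for counting error only, and the test over libraries gave an adjusted p of 0.0764 (0.00139 to 0.257 over the alternatives). Usp18 and Irf7 also did not overlap and were lower in CD45+CD4- cells, so that 3 of the 10 genes and 19.2% of all genes were without overlap. None of the 10 was called, beside 1.53% of all genes. Ifit1 was at 34.5, 0.301 and 0 CPM against 109, 2.38 and 44.7 CPM (log2 fold change -2.33 ± 1.02 (SE), adjusted p = 0.291), and it was called without replicate 1 of the CD45+CD4- cells (adjusted p = 7.38e-05). CD45+CD4- cells are a mixture, with B cell markers at 8642 to 16370 CPM and plasmacytoid dendritic cell markers at 908 to 2234 CPM. The latter list holds Ly6d, which B lineage cells express too, and its Klk1 had no read in these cells. Which cells of the mixture held Mx1 or Oasl2 was not tested.

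**Figure D4:**
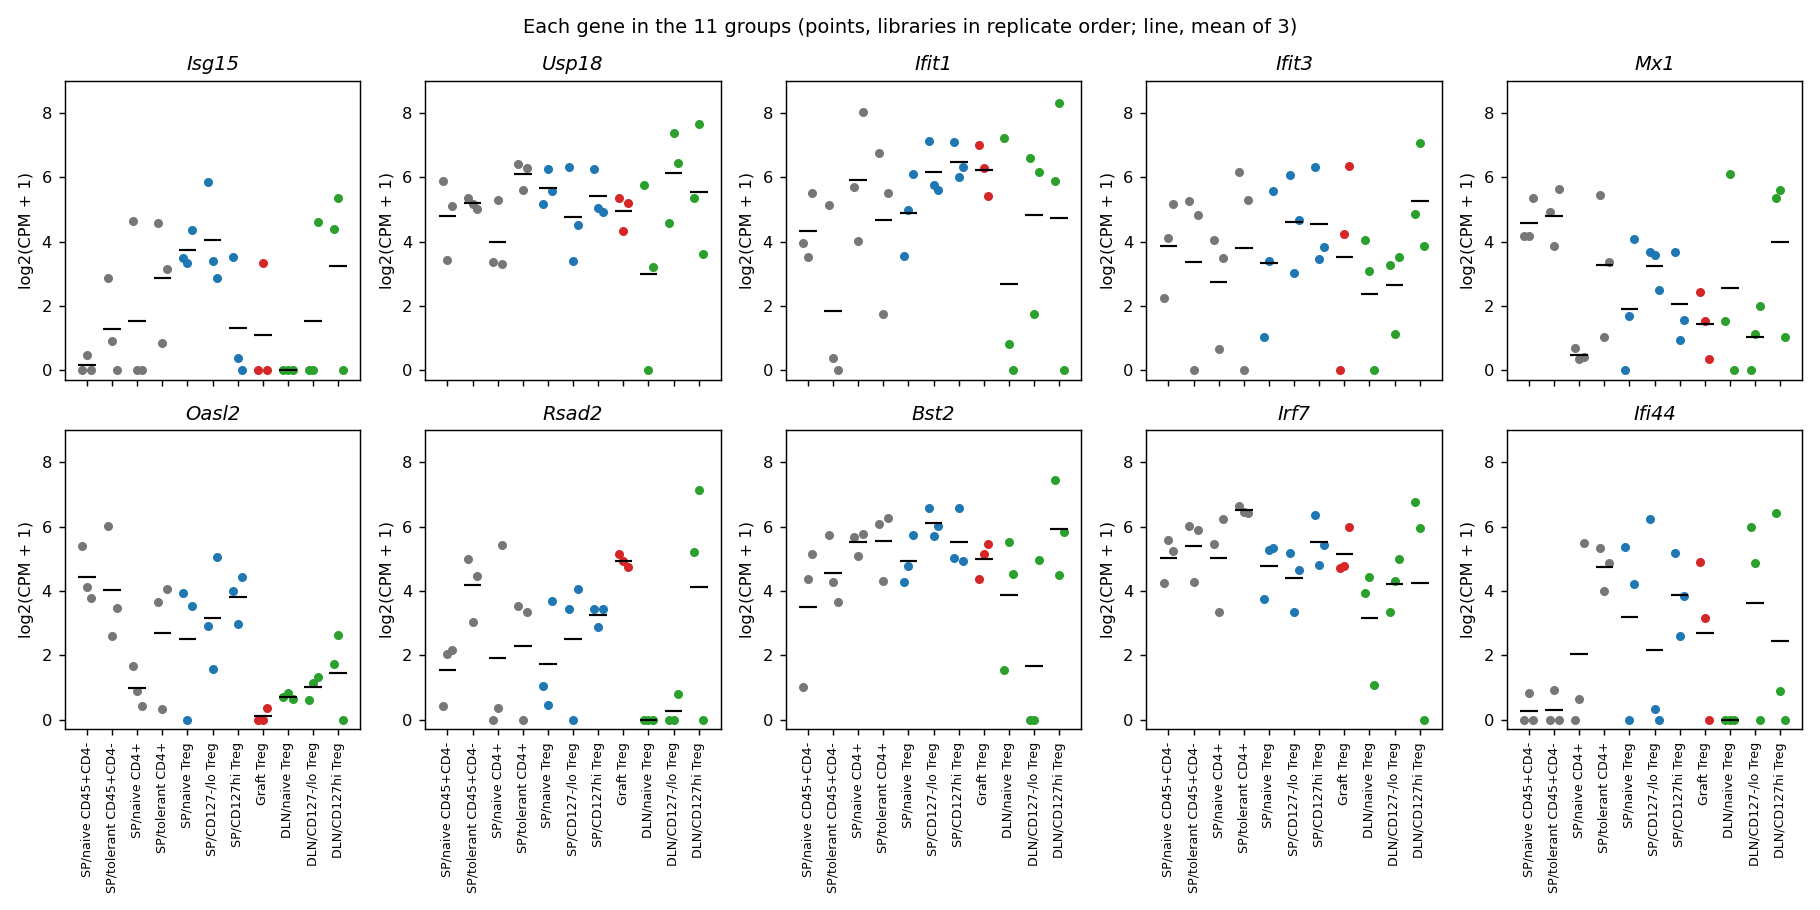
The 10 genes in the 11 groups, as log2(CPM + 1), with 1 point per library in replicate order and a line at the mean of the 3 points. Grey marks Foxp3- cells of the spleen, blue splenic Tregs, red graft Tregs and green DLN Tregs. Oasl2 is lowest in graft Tregs and Mx1 in SP/naive CD4+ T cells, each with at most 3 reads in every library, so that their order among low groups is uncertain. Rsad2 is at 0 in the DLN/naive Tregs.

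Tregs and CD4+ T cells of the spleen were not separated by the test in any of the 10 genes. None was called in SP/naive (0.264% of all genes called), SP/CD127-/lo (0.469%), SP/CD127hi (0.422%) or graft Tregs (0.619%) against SP/naive CD4+ T cells, nor in SP/CD127-/lo (0.284%) or SP/CD127hi Tregs (0.324%) against SP/tolerant CD4+ T cells. The lowest adjusted p was that of Mx1 in SP/CD127-/lo Tregs, at 11.7, 10.9 and 4.64 CPM against 0.618, 0.285 and 0.341 CPM in SP/naive CD4+ T cells (log2 fold change 4.33 ± 1.82 (SE), adjusted p = 0.449). Of these 60 tests 2 had an unadjusted p under 0.05, both of Mx1 and both against SP/naive CD4+ T cells, and DESeq2 and the likelihood ratio test called none.

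The ligands of the pathway were hardly measured. Of 16 type I interferon genes, 12 had any read, 31 reads in all in the 33 libraries, and none had more than 2 reads in a library. Ifnb1 had 2 reads. Of the 16, 5 passed the filter on low counts, and none was called in a comparison.

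The receptor and its signalling chain were present in every group. None of 13 genes of this list was called in any of the 19 comparisons. Ifnar1 was between 22.1 and 229.8 CPM over the 33 libraries, with a median of 105 CPM, and Ifnar2 between 16.5 and 175 CPM, with a median of 63.6 CPM. Stat2 had a mean from 61.4 ± 49.8 CPM (SD, n = 3) in SP/naive CD4+ T cells to 208 ± 50.8 CPM in SP/tolerant CD45+CD4- cells. Irf9 had a mean from 112 ± 2.87 CPM in SP/CD127-/lo Tregs to 199 ± 31.6 CPM in SP/tolerant CD4+ T cells.

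Of 13 genes that sense nucleic acids or carry their signal, 2 were called in at least 1 of the 19 comparisons, as were 851 of all 25347 genes tested (3.36%). Tlr7, the endosomal receptor for single-stranded RNA, was at 0 in the 3 libraries of SP/naive CD4+ T cells. It was at 24.6, 7.45 and 41.6 CPM in SP/naive CD45+CD4- cells, at least 26.2-fold higher (adjusted p = 0.0124, called in 10 of 14 alternatives) and at least 17.1-fold higher without replicate 3, and at 0, 30.2 and 27.00 CPM in SP/CD127hi Tregs, at least 20.4-fold higher (adjusted p = 0.0334, called in 8 of 14 alternatives). The macrophage and monocyte markers were at 357 to 504 CPM in SP/CD127hi Tregs and 71.1 to 108 CPM in SP/naive CD4+ T cells, and the B cell markers at 1202 to 1367 CPM and 453 to 743 CPM, and the part of these cells in the difference of Tlr7 was not tested. Of all genes, 1.04% and 0.422% were called in the 2 comparisons. Ikbke, a kinase that activates Irf3 and Irf7, was lower in SP/tolerant CD45+CD4- cells, at 62.5, 77.9 and 48.6 CPM, than in SP/tolerant CD4+ T cells, at 232, 292 and 279 CPM (log2 fold change -2.20 ± 0.54 (SE), adjusted p = 0.00846, called in 11 of 14 alternatives), where 1.53% of all genes were called.

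Of 60 other interferon stimulated genes that were measured, 11 were called in at least 1 comparison, beside 3.36% of all genes. In DLN/CD127hi against DLN/naive Tregs 3 rose and 0 fell, Ly6a, Ly6c2 and Ifitm3, with 0.951% of all genes called. Ly6a, which encodes Sca-1, was at 1481, 1659 and 1191 CPM against 225, 545 and 351 CPM (log2 fold change 1.78 ± 0.34 (SE), adjusted p = 0.000269, called in 11 of 14 alternatives). Ly6c2, which is also 1 of the 11 macrophage and monocyte markers whose sum was higher in the same libraries, was at 63.2, 151 and 49.8 CPM against 0.631, 1.52 and 1.11 CPM (log2 fold change 6.11 ± 1.02 (SE), adjusted p = 1.39e-05, called in 13 of 14 alternatives), with a log2 fold change of 5.52 without replicate 2. Every DLN/CD127hi library lay above every DLN/naive library for these 2 genes, and the part of monocytes in the difference of Ly6c2 was not tested. Ifitm3, which blocks the entry of viruses, was at 44.5, 71.4 and 0 CPM against 0 in all 3 libraries, at least 19.8-fold higher (adjusted p = 0.0142, called in 9 of 14 alternatives), and at least 11.4-fold higher without replicate 2. It had no read in the same replicate 3 as Rsad2. In DLN/CD127-/lo against DLN/naive Tregs Ly6a (992, 536 and 1307 CPM, adjusted p = 0.0362) and Ly6c2 (2.07, 3.55 and 49.1 CPM, adjusted p = 0.0246) rose, each called in 7 of 14 alternatives. Ly6c2 was high in 1 library, replicate 3, and was not called when this library was left out (adjusted p = 0.587). The B cell markers, given above for these libraries, were higher in every DLN/CD127-/lo than in every DLN/naive library, and the macrophage and monocyte markers were at 142, 895 and 159 CPM against 307, 30.4 and 385 CPM. The part of these cells in both differences was not tested. Ifitm3 also rose against the DLN/CD127-/lo Tregs, which were at 0 in all 3 libraries, and was at least 15.7-fold higher (adjusted p = 0.0294, called in 7 of 14 alternatives), or at least 9.05-fold without replicate 2 of the DLN/CD127hi Tregs.

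In the spleen, several genes of this list were lower in CD45+CD4- cells than in CD4+ T cells. Ms4a4b, Ms4a6b, Slfn1, Ifi27l2a and Ly6a fell in naive CD45+CD4- cells against CD4+ T cells and Ly6c2 rose, so that 5 of 60 were lower and 1 was higher, where 1.04% of all genes were called. Ly6a was called in 4 of 14 alternatives, Ly6c2 in 6 and the others in at least 13. Slfn1 was at 15.2, 44.3 and 41.9 CPM against 280.1, 233 and 425 CPM (log2 fold change -3.49 ± 0.64 (SE), adjusted p = 3.57e-05). Ly6c2 was at 280.3, 464 and 894 CPM against 68.9, 62.8 and 49.8 CPM (log2 fold change 2.94 ± 0.81 (SE), adjusted p = 0.0383), with a log2 fold change of 2.30 and no call without replicate 3 of the CD45+CD4- cells. The macrophage and monocyte markers, which include it, summed to 474, 1022 and 1516 CPM against 71.1, 72.2 and 108 CPM. Ly6c2 itself made up a large part of these sums in both groups. The T cell markers summed to 2030.2, 1995 and 2587 CPM in the naive CD45+CD4- cells against 7223, 6105 and 7119 CPM in the CD4+ T cells, and to 1326, 1278 and 991 CPM against 8419, 7817 and 8379.8 CPM in tolerant mice. The part of these cells in the genes that fell or rose was not tested. In tolerant mice Ms4a4b, Ms4a6b, Slfn1, Ifi27l2a and Shisa5 fell in CD45+CD4- cells and Ifitm1 rose, again 5 and 1 of 60, where 1.53% of all genes were called. Ifi27l2a, whose libraries overlapped between the groups, was called in 6 of 14 alternatives, Ifitm1 in 9 and the others in at least 13. Ifitm1 was at 26.2, 114 and 49.7 CPM against 0 in the CD4+ T cells, at least 84.99-fold higher (adjusted p = 0.0124) and at least 50.9-fold higher without replicate 2. Neutrophil markers, a list of 6 genes, summed to 421 to 3104 CPM in those CD45+CD4- libraries and to at most 0.794 CPM in the T cells, and their part in this was not tested.

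Between tolerant and naive mice, Shisa5 was the one gene of the 60 called in CD4+ T cells, at 2954, 3082 and 2576 CPM against 1525, 995 and 1153 CPM (log2 fold change 1.07 ± 0.26 (SE), adjusted p = 0.0387, called in 5 of 14 alternatives), and Ms4a4b the one in CD45+CD4- cells, at 1307, 1437 and 566 CPM against 1646, 1338 and 3616 CPM (log2 fold change -1.05 ± 0.22 (SE), adjusted p = 0.0106, called in 7 of 14 alternatives). Without replicate 3 of the SP/naive CD45+CD4- cells the log2 fold change of Ms4a4b was -0.38 and the gene was not called. T cell markers summed to 1326, 1278 and 991 CPM in these tolerant libraries and 2030.2, 1995 and 2587 CPM in the naive ones, and the part of T cells in the difference of Ms4a4b was not tested. In the CD4+ T cells, the macrophage and monocyte sums and the NK and CD8 T cell sums given above were higher in every tolerant library. Their part in the difference of Shisa5 was not tested. Against SP/naive CD4+ T cells, Ube2l6, the enzyme that attaches Isg15, rose from 0 in all 3 libraries to 53.3, 22.8 and 43.7 CPM in SP/CD127-/lo Tregs, at least 42.7-fold higher (adjusted p = 0.0117, called in 9 of 14 alternatives), and to 27.00, 10.1 and 7.01 CPM in graft Tregs, at least 15.7-fold higher (adjusted p = 0.0402, called in 7 of 14 alternatives) and at least 9.14-fold higher without replicate 1. Ly6e rose in both, to 4032, 2539.9 and 3222 CPM and 2886, 3517 and 3058 CPM from 1732, 1213 and 1448 CPM (adjusted p = 0.00306 and 0.004803, called in 8 and 10 of 14 alternatives). Ifi27l2a, at 5531, 2339 and 2456 CPM in SP/CD127-/lo Tregs, rose against SP/naive (771, 1366 and 1558 CPM, adjusted p = 0.000907, called in 9 of 14 alternatives) and SP/tolerant CD4+ T cells (1250.2, 515 and 702 CPM, adjusted p = 2.51e-08, called in 13 of 14 alternatives), with log2 fold changes of 0.87 (not called) and 1.60 (called) without replicate 1 of the SP/CD127-/lo Tregs. It rose in SP/CD127hi Tregs against the latter (2128, 2310.5 and 2410.2 CPM, adjusted p = 0.00165, called in 10 of 14 alternatives). B cell markers were at 1514 to 1578 CPM in SP/CD127-/lo and 1202 to 1367 CPM in SP/CD127hi Tregs. They were at 453 to 743 CPM in SP/naive and 639 to 885 CPM in SP/tolerant CD4+ T cells. The graft Tregs had macrophage and monocyte markers at 322 to 676 CPM, against 71.1 to 108 CPM in SP/naive CD4+ T cells. Kidney epithelial markers were at 42.3 to 847 CPM against at most 3.71 CPM. The part of these cells in the 3 genes was not tested. Ly6c2 fell in all splenic Treg groups against CD4+ T cells, to 0.333 ± 0.371 CPM (SD, n = 3) in SP/naive Tregs from 60.5 ± 9.75 CPM. That call was kept in 14 of 14 alternatives, those of SP/CD127hi Tregs in 11 each, and those of SP/CD127-/lo Tregs in 7 against SP/naive and 8 against SP/tolerant CD4+ T cells. Ms4a4b fell in SP/naive, SP/CD127hi and graft Tregs against SP/naive CD4+ T cells and in SP/CD127hi Tregs against SP/tolerant CD4+ T cells, called in 8, 10, 10 and 9 of 14 alternatives in this order. Ly6c2 was also called in graft Tregs, lower than in SP/naive CD4+ T cells (adjusted p = 0.0146, called in 7 of 14 alternatives) and higher than in SP/naive Tregs, the second on replicate 1 alone, at 16.3, 0 and 0 CPM (adjusted p = 0.0431, called in 6 of 14 alternatives). Without that replicate the log2 fold change was -2.97.

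The genes whose group means were most like the mean of the 10 over the 11 groups, among 11309 genes, were Nars2 (Pearson correlation 0.938), Txnl1 (0.931), Mterf1b (0.925), Rnf2 (0.916) and Dcun1d5 (0.905), where the median of all was 0.182. None of them belongs to the lists of the pathway. The mean log2 CPM of the 10 genes itself was lowest in the DLN/naive Tregs (1.53) and highest in the SP/tolerant CD4+ T cells (4.17), and the 11 points share the sequencer of their tissue.

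Some counts are uncertain because genes share sequence. Of the 75-base stretches of Ifit3, 41.1% also occur in its copy Ifit3b, so that reads of such stretches could have been left out or split, and Ifit3b itself had no read in 16 libraries and at most 16.8 CPM. The shared part was 5.19% for Ifit1 with Ifit1bl2, 1.71% for Mx1 with Mx2 and 1.92% for Usp18 with Gm44148. Exons of Usp18 and Irf7 overlap those of Gm44148 and Phrf1 on the other strand, and with counts over both strands the reads of such overlaps cannot be told apart.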

How the data were processed

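According to the methods and the submitters' processing notes, the authors checked reads with FastQC, trimmed them with Trim Galore and used STAR for alignment to mm10, to which the EGFP sequence had been added. The deposited values are raw counts of reads per gene, 1 table per library with the layout of STAR's gene counts, and the column over both strands was used. The methods name HTSeq for counting, so that these tables may not be the counts used in the study. Lines for reads without a gene were left out of totals, and were 37.0% to 69.2% of the counted reads. Symbols, positions and exon lengths came from GENCODE vM21 (GRCm38). Levels are CPM of the total on genes.

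The 25347 genes that reached 1 CPM in any of the 33 libraries were fitted with edgeR 4.0.16 in R 4.3.3, with TMM factors and 1 mean per group, and tested with the quasi-likelihood test. The p-values were adjusted by Benjamini-Hochberg over all genes tested, with calls at 0.05. The 19 comparisons and 3 differences between effects used 1 fit. Log2 CPM had a prior count of 2. Fold changes against groups without a read use 3 reads per library. Groups with 1 to 3 reads have an exact 95% (Clopper-Pearson) interval of the ratio. Intervals cover counting error only.

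Alternatives were the likelihood ratio test, DESeq2 1.42.0, RLE factors, no filter or a stricter filter (10 counts in 3 libraries), the compared libraries only, a term for the replicate number (the block), ComBat-Seq (sva 3.50.0) between the sequencers, and the omission of each library in turn. The tests were run on simulated data first. Python 3.11.15 with scipy 1.17.1 was used for tables. The genes, the lists of the pathway and the markers were chosen with earlier results of these data known. Named genes were the 10, genes of the pathway lists that were called, Ifnar1, Ifnar2, Stat2 and Irf9, the 5 genes most like the 10, and the markers. Some genes that followed the 10 within groups were named as well. Levels of Mx2 were not analysed here, and 1 gene that the rule names is not reported here.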

Additional observations from a re-analysis of the deposited data

Results flagged for a closer look

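The difference between CD127hi and CD127-/lo Tregs differed between DLN and spleen for Ifitm3, an interferon stimulated gene outside the 10, by 11.66 ± 2.81 (SE) on the log2 scale (adjusted p = 0.0413 by the test of the difference itself, edgeR's quasi-likelihood test). Ifitm3 was at 44.5, 71.4 and 0 CPM in DLN/CD127hi and 0 in all 3 DLN/CD127-/lo libraries, and at 9.53, 0 and 0 CPM in SP/CD127hi and 23.2, 11.4 and 0 CPM in SP/CD127-/lo Tregs. With a group at 0 the fitted value is no measure of the size. The call was kept with the likelihood ratio test (adjusted p = 0.0271), RLE factors (0.0255), no filter (0.0139) and the replicate block (0.00473), and lost with DESeq2 (0.125), a stricter filter (0.272), ComBat-Seq (0.101) and the compared libraries only (0.169). It was also lost without replicate 1 of the SP/CD127-/lo Tregs (0.174), replicate 2 (0.0722) or 3 (0.0742) of the SP/CD127hi Tregs, or replicate 2 of the DLN/CD127-/lo Tregs (0.183), and kept without any 1 of the other 8 libraries. Tissue and sequencer cannot be told apart here.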

How the results depend on the processing

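The number of the 10 genes called kept its value in 160 of 176 counts under other settings and in 138 of 150 counts without 1 library. With DESeq2 it was 1 in place of 0 in graft Tregs against SP/naive, SP/CD127-/lo and SP/CD127hi Tregs (Oasl2), 1 in place of 0 in DLN/CD127-/lo against DLN/naive Tregs (Ifi44) and in DLN/CD127hi against DLN/CD127-/lo Tregs (Rsad2), 2 in place of 0 in SP/naive CD45+CD4- cells against CD4+ T cells (Mx1 and Oasl2), and 2 in place of 1 in DLN/CD127hi against DLN/naive Tregs (Ifi44 and Rsad2). In that last comparison it was also 2 with RLE factors and without a filter, and 0 with a stricter filter, with ComBat-Seq and with the compared libraries only. Without a filter it was 1 in place of 0 in DLN/CD127-/lo against DLN/naive Tregs and in SP/tolerant CD45+CD4- cells against CD4+ T cells (Ifi44 in both), and for the latter also with the compared libraries only. The cause of these changes was not tested. Over the 19 comparisons the calls came to 1 in all, and to 9 with DESeq2, 4 without a filter, 2 with RLE factors and with the block, and 0 with a stricter filter and with ComBat-Seq.

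Leaving out 1 library at a time gave 0 to 2 calls in DLN/CD127hi and in DLN/CD127-/lo against DLN/naive Tregs, 0 to 1 in DLN/CD127hi against DLN/CD127-/lo Tregs, in SP/tolerant against SP/naive CD45+CD4- cells, in SP/tolerant CD45+CD4- cells against CD4+ T cells, and in the differences between DLN and spleen of CD127hi against CD127-/lo and of CD127-/lo against naive Tregs. The libraries that brought a call were replicate 1 of the SP/tolerant CD45+CD4- cells and replicate 1 of the DLN/naive Tregs (Ifit1), replicate 3 of the DLN/CD127-/lo Tregs (Bst2 and Ifi44), replicate 3 of the DLN/CD127hi Tregs (Ifi44 and Rsad2) and replicate 1 of the SP/CD127-/lo Tregs (Ifi44). Ly6c2 in graft against SP/naive Tregs had a log2 fold change of 4.18, and from -2.97 (without replicate 1 of the graft) to 5.12 without 1 library.

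Replicate numbers did not pair the libraries. The median correlation of deviations was 0.00218 for the same and -0.00132 for different numbers. The mean correlation with libraries of other groups was taken for each of the 3 numbers. It was highest for a library's own number in 14 of 33 libraries. With the replicate block, Rsad2 was called in DLN/CD127hi against DLN/CD127-/lo Tregs, 1 in place of 0, and no other count of the 10 genes changed. Depth limits the DLN most, where 3 reads stood for up to 3.55 CPM, more than the mean of Oasl2 in any DLN group.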
